A study of Homo sapiens with 9 samples.

Results

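The accessible regions listed with each of the 2 hairpins against CHD4 were compared directly with each other. The members were 205280 regions, 122456 with the first hairpin and 82824 with the second, out of 291899 rows in all 3 lists of the series. They were chosen by group and position, with filters on value and width: every region on chromosomes 1 to 22 and X, without those whose authors' value was negative or whose width was over 20 kb.

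Chromatin accessibility was measured by ATAC-seq, which uses a transposase to cut and tag open DNA, in SK-N-MC, an established cell line labelled as Ewing sarcoma. All cells carried an inducible short hairpin RNA and had been kept with 100 ng/ml doxycycline for 48 h. The groups were shCHD4#1 (hairpin 1 from here on), shCHD4#2 (hairpin 2), both labelled as CHD4 knockdown, and the control shScramble, labelled wildtype. Each group had 3 samples that the labels call biological replicates, but the data used here were 1 list of regions per group. Each list was filed under replicate 1 of its group. It was treated as the combined list of the group because its name holds that of a program that combines replicate lists, which is an inference. Every sample also held a small spike of Drosophila S2 cells. The lists hold no read counts, so the depth behind them is unknown, and neither the CHD4 level nor the strength of either knockdown can be read from them.

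CHD4 is an ATPase that slides nucleosomes and is the motor of the NuRD complex, which also carries histone deacetylases and is known for keeping promoters and enhancers in check. Accessible regions are mostly promoters, enhancers and insulator sites. A pair of hairpins against one gene shares the intended target and need not share unintended ones, so the comparison asks how far the regions listed with one were also listed with the other. It leaves out the control, so a region listed with both is not by itself a change. A single list per group gives no replicate spread, so no difference was tested. The 95% Wilson intervals beside shares hold counting error alone and take each region as independent of its neighbours.

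The promoters at the top of each class show the kind of sequence behind the comparison. The windows below run from 250 bases before to 50 after a RefSeq start (GRCh38.p14), are written 5′ to 3′ on the gene's strand, and carry CpG dinucleotides in capitals. The first 3 were covered with hairpin 1 only: LRRC27 (chr10:132337090-132337389, plus strand), which lay under row 70 of that list, MYL11 (chr16:30372044-30372343, plus strand), which encodes a fast-muscle myosin light chain, under row 111, and SRF (chr6:43171019-43171318, plus strand), which encodes serum response factor, under row 144. The next 3 were covered with hairpin 2 only: AGPAT1 (chr6:32173067-32173366, minus strand), which encodes an enzyme of phospholipid synthesis, under row 104, ATG9B (chr7:151024450-151024749, minus strand), an autophagy gene, under row 181, and ANKRD11 (chr16:89490512-89490811, minus strand), which encodes a chromatin regulator, under row 197. The last, SLC2A8 (chr9:127396919-127397218, plus strand), which encodes a sugar transporter, was covered near the top of both lists, by row 19 with hairpin 1 and row 12 with hairpin 2.
LRRC27: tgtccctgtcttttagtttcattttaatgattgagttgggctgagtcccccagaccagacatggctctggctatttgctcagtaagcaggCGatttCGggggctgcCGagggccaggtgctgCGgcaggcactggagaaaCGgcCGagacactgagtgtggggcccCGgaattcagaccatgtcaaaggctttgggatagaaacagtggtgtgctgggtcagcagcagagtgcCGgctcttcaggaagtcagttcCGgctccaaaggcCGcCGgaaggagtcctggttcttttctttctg
MYL11: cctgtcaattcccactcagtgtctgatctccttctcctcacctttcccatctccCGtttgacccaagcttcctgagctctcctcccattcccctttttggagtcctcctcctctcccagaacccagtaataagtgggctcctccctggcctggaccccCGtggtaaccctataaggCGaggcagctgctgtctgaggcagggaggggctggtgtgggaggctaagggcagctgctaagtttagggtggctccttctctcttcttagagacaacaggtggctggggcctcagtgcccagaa
SRF: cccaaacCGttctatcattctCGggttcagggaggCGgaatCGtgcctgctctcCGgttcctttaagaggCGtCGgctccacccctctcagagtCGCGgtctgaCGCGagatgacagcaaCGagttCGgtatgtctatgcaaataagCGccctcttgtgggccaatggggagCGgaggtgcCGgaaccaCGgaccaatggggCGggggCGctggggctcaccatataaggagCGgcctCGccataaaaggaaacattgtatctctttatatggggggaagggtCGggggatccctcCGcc
AGPAT1: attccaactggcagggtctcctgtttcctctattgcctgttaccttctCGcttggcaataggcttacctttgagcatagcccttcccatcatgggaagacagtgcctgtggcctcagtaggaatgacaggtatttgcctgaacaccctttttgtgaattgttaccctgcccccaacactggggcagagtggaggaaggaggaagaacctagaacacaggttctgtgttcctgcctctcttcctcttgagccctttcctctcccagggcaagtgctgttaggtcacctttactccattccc
ATG9B: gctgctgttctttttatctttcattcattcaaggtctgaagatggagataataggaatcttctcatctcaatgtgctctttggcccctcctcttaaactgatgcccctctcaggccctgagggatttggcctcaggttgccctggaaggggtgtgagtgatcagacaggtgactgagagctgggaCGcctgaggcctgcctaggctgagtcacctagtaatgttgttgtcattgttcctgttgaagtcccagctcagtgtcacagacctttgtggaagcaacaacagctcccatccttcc
ANKRD11: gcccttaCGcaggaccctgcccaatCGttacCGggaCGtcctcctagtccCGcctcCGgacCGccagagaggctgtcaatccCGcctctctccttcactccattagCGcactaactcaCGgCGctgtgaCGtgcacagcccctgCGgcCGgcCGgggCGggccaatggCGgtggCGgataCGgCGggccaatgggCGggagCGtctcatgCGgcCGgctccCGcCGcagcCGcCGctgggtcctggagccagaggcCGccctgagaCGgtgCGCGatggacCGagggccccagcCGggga
SLC2A8: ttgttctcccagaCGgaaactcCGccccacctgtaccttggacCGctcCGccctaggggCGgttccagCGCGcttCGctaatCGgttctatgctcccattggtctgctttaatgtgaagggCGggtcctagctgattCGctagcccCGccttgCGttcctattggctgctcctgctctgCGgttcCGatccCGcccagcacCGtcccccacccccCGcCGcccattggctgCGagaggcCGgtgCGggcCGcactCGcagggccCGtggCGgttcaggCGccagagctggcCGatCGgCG
The CpG number varied as widely within the classes as between them. LRRC27 held 11, MYL11 3 and SRF 23 in the class of hairpin 1, AGPAT1 and ATG9B 1 each and ANKRD11 34 in that of hairpin 2, and SLC2A8 held 30. These promoters were among the best-ranked of their classes and are examples, not a summary. A window covered with 1 hairpin only need not lie in a hairpin-specific region. The regions over LRRC27, MYL11, AGPAT1 and ATG9B overlapped a region of the other list outside the window. Those over SRF and ANKRD11 were specific, but a region of the other list was close by. The nearest hairpin 2 region to the hairpin 1 region at SRF began 310 bp away.

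Markers of the labelled cell type and of others were described first. The start, or either end where no start was known, of all 10 Ewing sarcoma markers used (among them NR0B1, NKX2-2 and STEAP1) was covered in both hairpin lists. Of 5 blood markers 3 were covered with hairpin 1 and 2 with hairpin 2, and PTPRC and CD14 with neither. Of 5 epithelial markers 3 and 2 were covered, and of 4 endothelial markers 1 in each list. All 4 muscle markers were covered with hairpin 1 and 3 of them with hairpin 2. Over all genes a start was covered in both lists at 62.5%, with hairpin 1 only at 6.31% and with hairpin 2 only at 2.92%. The best-ranked Ewing sarcoma start lay in row 17223 with hairpin 1 and row 6580 with hairpin 2. For blood it was rows 3736 and 11842, for epithelium 5464 and 8790, for endothelium 77973 and 34811, and for muscle 17806 and 13736. The best Ewing sarcoma start thus ranked first with hairpin 2 but not with hairpin 1. It was the best of 10 genes, against 4 or 5 for the other cell types, which favours the larger set. An open start does not show that a gene is transcribed.

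The hairpin 1 list was longer and its regions were wider. It held 122456 regions over 198.6 Mb, with a median width of 1390 bp (quartiles 1020 and 1930). The hairpin 2 list held 82824 regions over 102.8 Mb, with a median width of 1040 bp (760 and 1480). The control list, after the same filters, held 85359 regions over 140.7 Mb with a median of 1440 bp. In number the control was thus near hairpin 2, and in width near hairpin 1. The authors' p was at most 0.05 for 11.98% of the regions with hairpin 1 and 13.2% with hairpin 2.

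Most regions listed with hairpin 2 were also listed with hairpin 1, but not the reverse. Of the hairpin 2 regions, 68813 (83.1%, 95% interval 82.8 to 83.3) overlapped a hairpin 1 region by 1 bp or more and 14011 did not. Of the hairpin 1 regions, 66025 (53.9%, 53.6 to 54.2) were shared and 56431 were specific. The bases in both lists came to 72.9 Mb, 36.7% of the bases with hairpin 1 and 70.9% of those with hairpin 2. The asymmetry went with the length of the lists. Among the first 20000 rows of each, which are sorted by the authors' p, 66.7% (66.1 to 67.4) and 67.4% (66.7 to 68.0) were shared. With the hairpin 1 list shortened from its end to as many rows as the other, the shares were 63.3% and 68.1%.

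Sharing fell along both lists, far more steeply with hairpin 1. Each decile was set against the whole other list, and the list searched for hairpin 1 regions was shorter, with narrower regions. At equal length, in the first 80000 rows of each list, 63.3% and 68.0% were shared. In the best-ranked decile of rows, 95.8% of the hairpin 1 regions and 97.1% of the hairpin 2 regions overlapped the other list. In the fifth decile the shares were 47.5% and 82.7%, and in the ninth 21.9% and 73.0%. Sharing then rose again in the last decile, to 54.7% and 82.4%. That decile holds a block of rows tied at one authors' p-value near the end of each list. The block had 8099 regions tied at 0.949 with hairpin 1. With hairpin 2 it had 5119 tied at 0.954. The tied regions had large values in the authors' other score, with a median of 653 against 203 for the remaining hairpin 1 regions and 757 against 227 with hairpin 2. They were also wide, with medians of 2160 bp and 1700 bp, and 74.0% and 90.1% of them were shared. List order therefore does not follow the authors' other score at the end of either list.

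**Figure D1:**
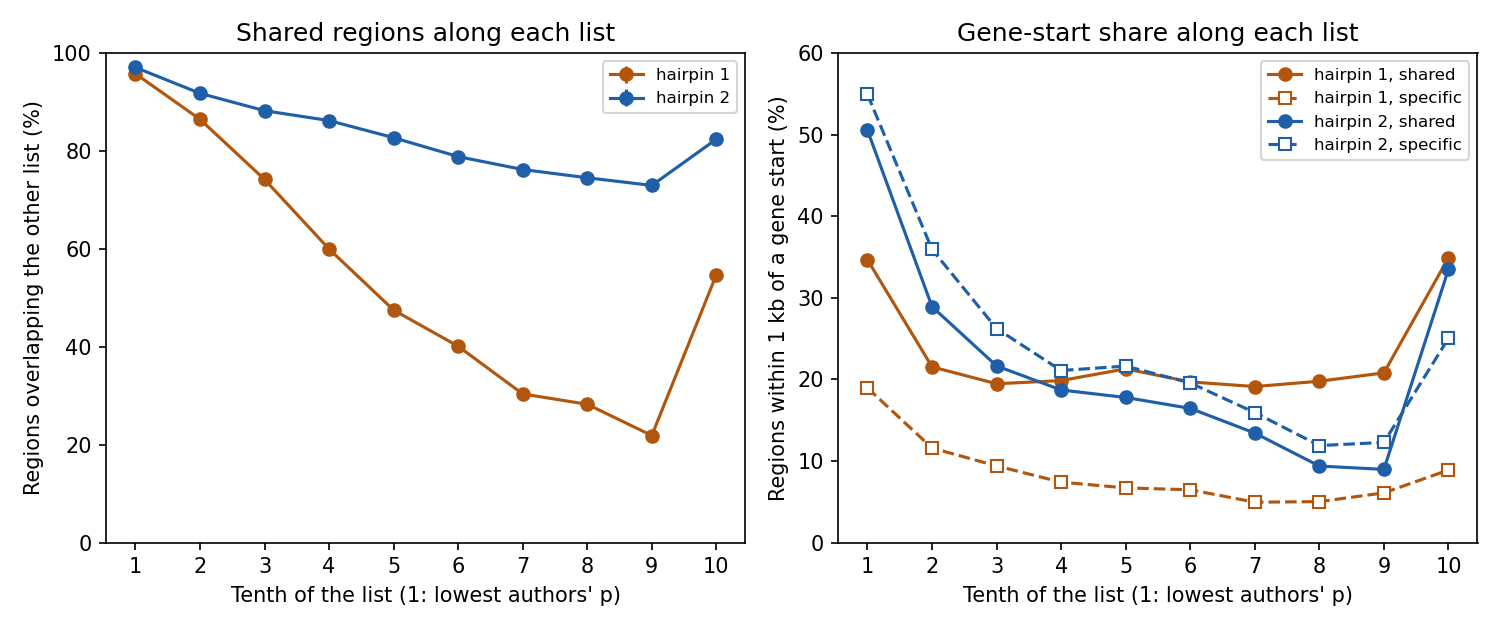
Share of regions overlapping the other hairpin's list (left, percent, with 95% Wilson bars smaller than the points) and share within 1 kb of a gene start (right, percent, filled for shared and open for specific regions), by decile of each list in the order of the authors' p. Sharing fell from 95.8% to 21.9% over the first 9 deciles with hairpin 1 and from 97.1% to 73.0% with hairpin 2, and the open hairpin 1 symbols lie below the open hairpin 2 symbols in every decile.

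Hairpin-specific regions were weak ones by the authors' p. The median specific region stood at 65.1% of the way down the hairpin 1 list and 63.9% down the hairpin 2 list. Only 729 (1.29%) of the 56431 specific to hairpin 1 and 427 (3.05%) of the 14011 specific to hairpin 2 had a p of at most 0.05, and 13 and 9 had a q of at most 0.05. At the top of the lists, specific mostly meant a difference in rank. Of the regions specific within the first 20000 rows, 78.9% with hairpin 1 and 79.5% with hairpin 2 overlapped some region farther down the other list. Against the whole other list, 93.0% and 93.3% of the first 20000 rows were shared.

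Specific regions of the 2 lists also lay at different distances from the other list. The median hairpin 2 specific region was 550 bp from the nearest hairpin 1 region, and 61.0% (60.1 to 61.8) lay within 1 kb of one. The median hairpin 1 specific region was 6310 bp from the nearest hairpin 2 region, 26.9% (26.6 to 27.3) lay within 1 kb, and 23253 (41.2%) lay over 10 kb away. With the hairpin 1 list shortened to the length of the other, the medians were 1380 bp for hairpin 2 and 5060 bp for hairpin 1, and 44.8% and 32.2% lay within 1 kb. Within the first 20000 rows, the medians were 27695 bp for hairpin 1 and 22406 bp for hairpin 2.

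Regions were wider with hairpin 1 also where both lists marked the same place. Shared hairpin 1 regions had a median width of 1440 bp and specific ones 1320 bp. With hairpin 2 the medians were 1070 bp and 900 bp. Specific regions were thus narrower than shared ones in each list, and hairpin 1 specific regions were wider than the shared regions of hairpin 2. The order was the same in the first 20000 rows, at 1750, 1480, 1370 and 1090 bp. Regions under 500 bp made up 10.8% of the hairpin 2 specific regions, 4.61% of those shared, and 1.79% of the hairpin 1 specific regions. At 44054 places 1 region of each list overlapped only the other. There the hairpin 1 region was the wider in 33179 (75.3%), the medians were 1420 and 1070 bp, and the hairpin 2 region lay wholly inside its partner in 47.6%. The centres were a median of 170 bp apart. Across these places Spearman's rho between the ranks in the 2 lists was 0.68. This describes places within 1 pair of lists, which are not independent. A single hairpin 1 region overlapped 2 hairpin 2 regions in 9486 cases, and the reverse was seen in 7461.

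**Figure D2:**
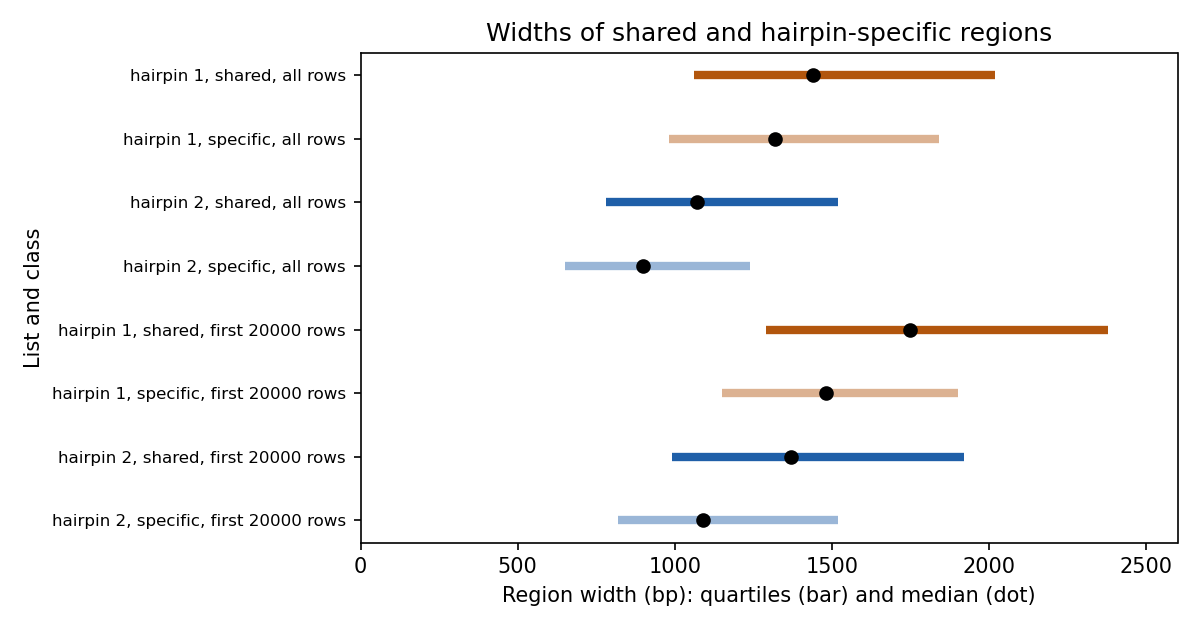
Width in bp of shared and hairpin-specific regions in each list, over all rows and in the first 20000 rows (bar: lower to upper quartile; dot: median). Hairpin 1 medians (1440 and 1320 bp over all rows) lie to the right of hairpin 2 medians (1070 and 900 bp).

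The specific regions of the 2 lists differed in gene position. Over all rows, 24.3% of shared hairpin 1 regions and 22.8% of shared hairpin 2 regions lay within 1 kb of a protein-coding gene's start. Of the regions specific to hairpin 1 only 6.73% (6.52 to 6.93) did, against 19.5% (18.9 to 20.2) of those specific to hairpin 2. Hairpin 1 specific regions lay instead inside genes (45.7%, against 40.2% with hairpin 2) or over 50 kb from any gene (23.5% against 16.5%). In the first 20000 rows the shares at gene starts were 36.5% for shared and 14.1% (13.3 to 15.0) for specific hairpin 1 regions, and 36.1% for shared and 39.4% (38.2 to 40.6) for specific hairpin 2 regions. The gap held at every length tried from the top, though the shorter cuts lie within the longer ones and are not separate checks. In the first 1000 rows of each list, 24.1% (20.04 to 28.74) of 369 specific hairpin 1 regions and 68.3% (63.4 to 72.8) of 369 specific hairpin 2 regions lay at a start. In the first 80000 rows the shares were 8.72% and 21.1%. The whole lists differed in the same direction, with 52.5% of the first 1000 hairpin 1 rows and 68.9% of the first 1000 hairpin 2 rows at a start. The tied regions at the end of each list fall outside the first 20000 rows, and 30.2% and 45.1% of them lay at a start. A region near the top whose only counterpart is tied counts there as specific, and the part of this in the gap was not tested. Each hairpin had 1 list, so the hairpin and the depth or quality of its libraries cannot be told apart.

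**Figure D3:**
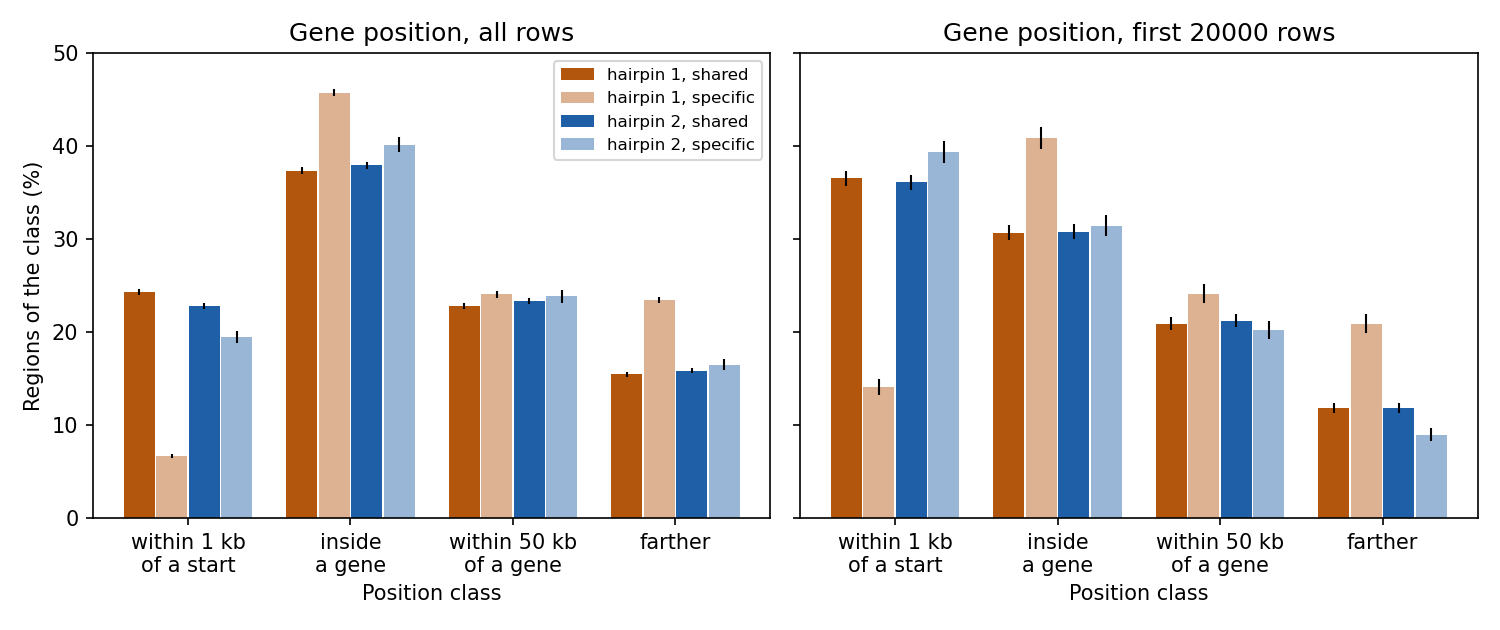
Share of regions (percent, bars with 95% Wilson intervals) in 4 position classes for shared (dark) and specific (pale) regions of each hairpin list, over all rows (left) and in the first 20000 rows (right). Specific hairpin 1 regions lie at a start in 6.73% and 14.1%, below the other 3 classes in both panels.

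The shScramble list, which the comparison itself does not use, held shared regions more often than specific ones. It overlapped 73.8% of the shared hairpin 1 regions and 32.8% (32.4 to 33.2) of the specific ones, and 73.5% and 49.2% (48.36 to 50.01) with hairpin 2. Of the first 20000 rows it overlapped 79.3% of the hairpin 1 specific and 83.3% of the hairpin 2 specific regions. Regions there that were listed early with 1 hairpin and late or not with the other were thus mostly in the control list too.

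The excess with hairpin 1 was on every chromosome over all rows. The ratio of region numbers, hairpin 1 over hairpin 2, was 1.48 overall and ran from 1.23 on chromosome 19 to 1.67 on chromosome 13. In the first 20000 rows, whose totals are equal by construction, the ratio was highest on chromosome 8, at 1.22. There 41.9% of the hairpin 1 regions and 28.2% of the hairpin 2 regions were specific. Neither share stood alone, with 40.6% for hairpin 1 on chromosome 18 and 27.2% for hairpin 2 on chromosome 13. On chromosome 19 the order of the specific shares was the reverse, at 20.4% and 32.7%. Without chromosome 8 the specific shares in the first 20000 rows were 32.8% for both hairpins.

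**Figure D4:**
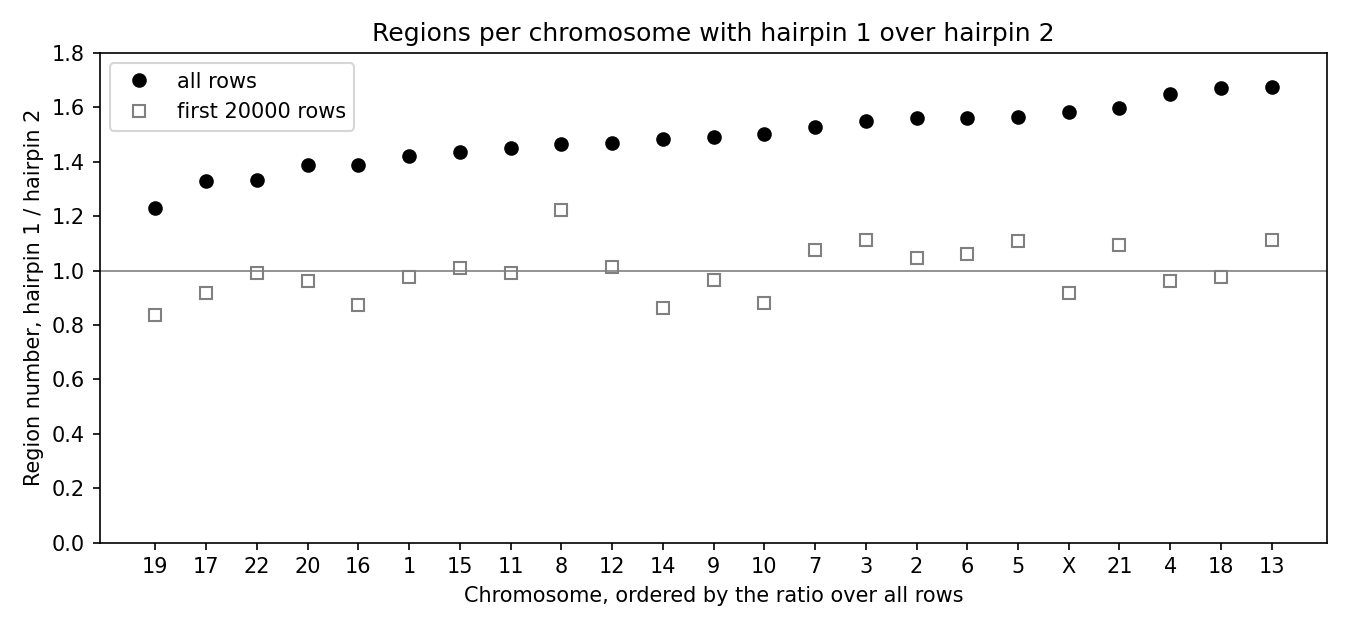
Number of regions with hairpin 1 divided by the number with hairpin 2 on each chromosome, over all rows (dots) and in the first 20000 rows (squares); the line marks equal numbers. All dots lie above the line, from 1.23 (chromosome 19) to 1.67 (chromosome 13), and chromosome 8 has the highest square.

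Promoter sequence differed between the classes in CpG content. The promoter table holds no gene of chromosome 8, so that chromosome is missing from the values here and from the motifs. Of 22012 promoter windows in the RefSeq table, 10145 were covered in both lists, 1824 with hairpin 1 only, 1835 with hairpin 2 only and 8208 with neither. The median CpG number per 300 bases was 25 in both, 16 with hairpin 1 only, 29 with hairpin 2 only and 8 with neither, against 21 over all windows. CpG-rich windows (at least 50% G and C and an observed-to-expected CpG ratio of at least 0.6) made up 78.8%, 49.2% (46.9 to 51.5), 78.0% (76.1 to 79.9) and 34.9%. The gap was smaller in the first 20000 rows: 73.3% (70.1 to 76.3) of 772 windows with hairpin 1 only and 85.0% (83.6 to 86.4) of 2418 with hairpin 2 only were CpG-rich.

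Short motifs, 10 in all, were searched on both strands. The GC box (GGGCGG), which contains a CpG, was in 56.3% of all windows, 69.0% of those covered in both lists, 52.9% with hairpin 1 only and 72.6% with hairpin 2 only. The TATA letters (TATAAA) were in 9.49%, 5.31%, 9.92% and 5.67% in that order. The AP-1 letters (TGANTCA) were in 6.16%, 4.02%, 8.33% and 3.98%. The ETS letters (CCGGAAGT) were in 5.32%, 8.80%, 3.56% and 5.83%. A pair of GGAA units (GGAAGGAA), short of the long repeats that EWSR1::FLI1 is known to bind, was in 3.68%, 3.44%, 4.22% and 3.32%. The CCAAT box (CCAAT) was in 34.7%, 38.5%, 30.7% and 29.9%, with no gap between the hairpin-specific classes beyond their intervals. In the first 20000 rows the intervals of the specific classes overlapped for TATA, at 5.05% (3.72 to 6.83) with hairpin 1 only and 4.80% (4.01 to 5.72) with hairpin 2 only. The same was so for AP-1, at 4.66% (3.39 to 6.39) and 3.93% (3.22 to 4.78), and for ETS, at 6.22% (4.72 to 8.15) and 8.64% (7.59 to 9.83). For the GC box it was 65.0% (61.6 to 68.3) and 72.5% (70.7 to 74.2). A match is a run of letters, not a bound site.

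**Figure D5:**
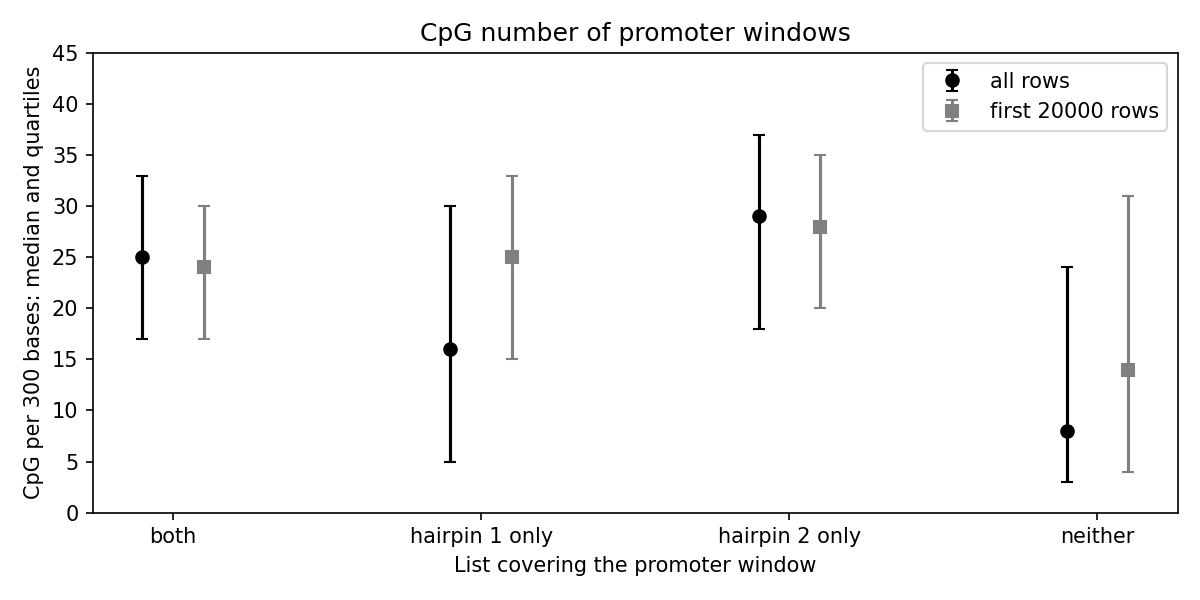
CpG dinucleotides per promoter window of 300 bases (median with quartiles) by the list that covers the window, over all rows (black) and in the first 20000 rows (grey). Over all rows the median was 16 with hairpin 1 only and 29 with hairpin 2 only; in the first 20000 rows it was 25 and 28.

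Single regions show both kinds of difference. The best-ranked region specific to hairpin 1 covered the start of SRF, the serum-responsive transcription factor (chr6:43168791-43171730, row 144); the nearest hairpin 2 region, at row 630, began 310 bp on. The second (chr17:81238931-81239430, row 328) covered the starts of TEPSIN and NDUFAF8, 60 bp from a hairpin 2 region in row 79922. The third and the fourth lay on chromosome 8, in rows 369 and 456, with ADCY8, an adenylate cyclase gene, as the nearest gene, 220242 and 275093 bp away. They were 630 and 46811 bp from the nearest hairpin 2 region. The fifth lay inside TSPAN9 on chromosome 12 (row 645), 110 bp from a hairpin 2 region. The best-ranked region specific to hairpin 2 lay at ANP32E, which encodes a histone chaperone for H2A.Z (chr1:150235171-150238380, row 21). It abutted a hairpin 1 region in row 114888, which had an authors' value of 3835 against 4776 and a p of 0.949, and it was in row 4 of the control list. The second (chr16:89490381-89491080, row 197) covered the start of ANKRD11, 730 bp from hairpin 1 row 2724. Within the first 20000 rows, the top region specific to hairpin 2 was row 2, at ARC, a neuronal activity gene. It overlapped hairpin 1 row 121930, whose authors' value was 11384 against 11972 and whose p was 0.949. Of the 5 shared regions with the best ranks in both lists, 2 lay on chromosome 8 with MYC, the growth-promoting transcription factor gene, as the nearest gene, 365151 bp away (rows 6 and 3) and 66130 bp away (rows 10 and 4). One lay 288238 bp from the start of NFE2L3 on chromosome 7 (rows 15 and 10). The others were one over the start of SLC2A8 (chr9:127394631-127397640), rows 19 and 12, and one 66064 bp from the start of CHD2 on chromosome 15, rows 8 and 11.

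Regions were then counted per gene, over 19974 protein-coding genes with 5 kb on both sides. More regions were listed with hairpin 1 at 10384 genes (52.0%), with hairpin 2 at 2772 (13.9%), and equal numbers at 6818, of which 2490 had none. The number, after adding 1 to both, was at least 2-fold higher with hairpin 1 at 2940 genes, 14.7% of all, and with hairpin 2 at 341, 1.71%. The order turned in the first 20000 rows, with 1437 genes (7.19%) higher with hairpin 1 and 2537 (12.7%) with hairpin 2. With the hairpin 1 list shortened to the other's length the numbers were 1135 (5.68%) and 1584 (7.93%). The direction thus depended on the length of list taken. The ratio of region numbers rose with gene length. It was 1.21 over genes under 10 kb, 1.25 from 10 to 50 kb, 1.40 from 50 to 200 kb and 1.64 over the 1396 genes of 200 kb or more, of which 90.3% had more with hairpin 1. In the shortest and the longest class it was 0.838 and 1.09 in the first 20000 rows.

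The CHD4 locus (chromosome 12) held 9 regions with hairpin 1, 7 with hairpin 2 and 6 with shScramble. Its start was covered in row 632 with hairpin 2 and row 21315 with hairpin 1. Accessibility at the gene says nothing of its knockdown, since a hairpin acts on the transcript. NR0B1, an EWSR1::FLI1 target, held 3, 4 and 3, NKX2-2, a transcription factor that marks Ewing sarcoma, 5, 4 and 8, and CCND1, cyclin D1, 5, 6 and 4. The hairpins differed there by at most 2 regions.

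Ranked by the difference in region number, the largest excess with hairpin 1 was at long genes. Such a ranking favours loci with many regions. DLG2, a postsynaptic scaffold gene, held 75 regions with hairpin 1, 36 with hairpin 2 and 47 with shScramble. TENM2, a teneurin adhesion gene, held 67, 34 and 51, and CNTNAP2, a neurexin family gene, 65, 34 and 54. MAGI2, a synaptic scaffold gene, held 42, 14 and 25, and GRM8, a glutamate receptor gene, 35, 10 and 24. The other 5 of the 10 genes with the largest difference were MACROD2 with 56, 25 and 27 regions, TRAPPC9 with 80, 44 and 58, CAMTA1 with 102, 71 and 63, MAD1L1 with 69, 39 and 32, and GSE1 with 103, 73 and 68. Hairpin 1 lay above the control at all 10, and hairpin 2 lay below it at 7 and above it at CAMTA1, MAD1L1 and GSE1. The 10 genes were picked for a high number with hairpin 1, so this order is partly fixed by the choice. The hairpin 1 list was also the longer, with 122456 regions against 85359 in the control list. Within the first 20000 rows the numbers were close at most of them, with 4 and 5 regions at DLG2 and 6 and 6 at CNTNAP2, while MAGI2 held 3 and none.

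The largest excess with hairpin 2 was smaller, and the bases covered did not always follow the number. PTP4A3, a phosphatase gene, held 16 regions with hairpin 1, 26 with hairpin 2 and 19 with shScramble, but these covered 37.3 kb with hairpin 1 and 26.6 kb with hairpin 2. PIK3R3, a phosphoinositide 3-kinase subunit gene, held 6, 12 and 7, over 21.2 kb and 16.8 kb. Its neighbours TSPAN1, P3R3URF and the readthrough P3R3URF-PIK3R3 share some or all of those regions and are not separate cases. At P3R3URF 1 hairpin 1 region covering 11003 bases stood against 8 hairpin 2 regions covering 7528 bases. At UNC5B, a netrin receptor gene, 18, 25 and 15 regions covered 33.9 kb with hairpin 1 and 29.4 kb with hairpin 2. The bases were more with hairpin 2 at the other 4 genes: PTPRH, a receptor phosphatase gene with 3, 9 and 4 regions (2.65 and 9.17 kb), AGAP3 (17.5 and 18.7 kb), CCDC124 (8.34 and 8.52 kb) and ENOSF1 (3.91 and 6.75 kb).

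Coverage was also counted per gene, where a start counts as covered if a region lies within 1 kb of any start of the gene, or of either end where no start is known, a wider window than the 300 bases of the promoters above. By this measure a start was covered in both lists at 12486 genes (62.5%), with hairpin 1 only at 1261 (6.31%), with hairpin 2 only at 584 (2.92%) and with neither at 5643 (28.3%). Within the first 20000 rows it was covered in both lists at 5492 genes (27.5%), with hairpin 1 only at 857 genes (4.29%) and with hairpin 2 only at 2432 (12.2%). With the hairpin 1 list shortened to the other's length it was 690 (3.45%) and 1757 (8.8%), beside 11313 (56.6%) covered in both, so here too the direction turned with the length. This wider window leaves out promoters such as SRF, which had a region of the other list within 1 kb of the start. It does not ask whether the covering region is itself specific. The best-ranked start covered with hairpin 1 only by this window was that of IDH2, mitochondrial isocitrate dehydrogenase (row 966). CACNA1S, a muscle calcium channel, came next (row 1709). CEP57L1 held 4 regions with hairpin 1, none with hairpin 2 and 3 with shScramble. APOD, NNAT and GFAP, whose starts were not in the promoter table, were covered at an end with hairpin 1 only. With hairpin 2 only, the best-ranked by the same window were ESPNL (row 135) and ATG9B (row 181). Both of these regions were shared, since each overlapped a hairpin 1 region that lay over 1 kb from the start. SYMPK, an mRNA 3′-end processing gene, had its start covered with hairpin 2 only (row 1441) although its locus held 8 regions with hairpin 1 and 2 with hairpin 2. AURKA, the mitotic kinase, held none with hairpin 1, 1 with hairpin 2 (row 3229) and 2 with shScramble.

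Over all rows, genes of chromatin and Ewing sarcoma biology mostly had covered starts in both lists. The counts stand beside 62.5% of all genes with a start covered in both, 14.7% at least 2-fold higher with hairpin 1 and 1.71% with hairpin 2. Of 15 NuRD subunit genes, 13 did, and 2 were at least 2-fold higher with hairpin 1 and 1 with hairpin 2. CDK2AP1, a small NuRD subunit, held 9 regions with hairpin 1, 1 with hairpin 2 and none with shScramble. MTA3, a NuRD scaffold, held 14, 5 and 7, and RBBP7, a histone chaperone in NuRD, 0, 2 and 1. Of 30 other chromatin remodeller genes, 29 had starts covered in both, 3 were at least 2-fold higher with hairpin 1 (among them ARID2, with 8, 2 and 6 regions, and SMARCB1, with 8, 3 and 7) and 0 with hairpin 2. Of 28 genes that EWSR1::FLI1 is known to activate, 26 had starts covered in both, 3 were higher with hairpin 1 and 1 with hairpin 2. In the first 20000 rows 8 of the 28 had starts covered in both, 28.6% against 27.5% of all genes. There 1 was at least 2-fold higher with hairpin 1 and 9 with hairpin 2, beside 7.19% and 12.7% of all genes. In those rows starts were covered in both at 7 NuRD genes (46.7%) and 11 remodeller genes (36.7%). TERT, telomerase, held 4 regions with hairpin 1 and none in the other 2 lists. STEAP2, a metalloreductase, held 5, 10 and 5. The median log2 ratio, hairpin 1 over hairpin 2, was 0.03 over these 28 genes, 0.19 over the NuRD genes and 0.39 over the remodellers, against 0.19 over all genes.

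Genes of small RNA handling and of RNA sensing bear on a comparison of hairpins because a hairpin passes through the former and can set off the latter. Of 13 small RNA genes, 2 were at least 2-fold higher with hairpin 1 (AGO3, an Argonaute, with 6, 2 and 5 regions, and AGO4, with 3, 1 and 3) and 0 with hairpin 2. Of 31 interferon and double-stranded RNA genes, 3 were higher with hairpin 1 and 0 with hairpin 2. IFIT3, an interferon-induced gene, held 5, 1 and 3. Starts were covered with hairpin 1 only at 2 of the 31 and with hairpin 2 only at 2. With so few genes these counts are close to the shares over all genes, and nothing is read from them.

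Growth and stress genes mostly had covered starts in both lists over all rows. The same shares over all genes apply, 62.5% for starts and 14.7% and 1.71% for 2-fold differences. All 33 p53 target and DNA damage genes had starts covered in both lists, 6 were at least 2-fold higher with hairpin 1 and 1 with hairpin 2. BRCA2, a recombination gene, held 5, 1 and 4 regions, and CDKN1A, the p21 gene, 3, 5 and 4. Of 33 cell cycle genes 29 had starts covered in both. CCNA2, cyclin A2, held 3 regions with hairpin 1, none with hairpin 2 and 3 with shScramble. Of 29 apoptosis genes 25 had starts covered in both, and 1 was higher with hairpin 1. Of 22 immediate early genes 20 did; FOSL2, an AP-1 subunit gene, held 9, 3 and 3. Of 83 ribosomal protein genes 79 did, and 2 were higher with hairpin 1 and 3 with hairpin 2. Of the ribosomal starts, 46 were covered in both lists within the first 20000 rows, 7 with hairpin 1 only and 19 with hairpin 2 only. These are 55.4%, 8.43% and 22.9% of the list, against 27.5%, 4.29% and 12.2% over all genes, so each class was more frequent than over all genes.

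Genes of other cell types gave counts that moved with the length of the list. Over all rows a start was covered with hairpin 1 only at 7 of 61 developmental transcription factor genes, 7 of 40 muscle genes, 4 of 40 neuronal genes, 7 of 35 blood genes, 5 of 30 epithelial genes, 2 of 20 endothelial genes and 3 of 31 mesenchymal genes, where the share over all genes was 6.31%. With hairpin 2 only it was 0 in the first 4 lists and in the endothelial one, 1 for epithelial and 4 for mesenchymal genes, beside 2.92% over all genes. With the hairpin 1 list shortened to the length of the other, the counts with hairpin 1 only and with hairpin 2 only were 2 and 3 for developmental, 3 and 3 for muscle, 2 and 5 for neuronal, 3 and 0 for blood, 4 and 3 for epithelial, 0 and 2 for endothelial, and 3 and 8 for mesenchymal genes. The shares over all genes were then 3.45% and 8.8%. The order of the hairpins thus turned for the developmental, neuronal and endothelial genes, became equal for the muscle genes and did not turn for the blood and epithelial genes. Among the muscle genes, PLN, a calcium pump regulator, held 2, 0 and 1 regions. Among the neuronal genes, GRIA1, a glutamate receptor gene, held 9, 1 and 1. SYK, a kinase of blood cells, held 4, 0 and 0, and PTPRC, the CD45 gene, 6, 1 and 3. LAMA3, an epithelial laminin gene, held 10, 3 and 2, ERG, an endothelial ETS factor gene, 6, 1 and 3, and TIMP3, a matrix protease inhibitor gene, 9, 3 and 6. TAGLN, a smooth muscle actin-binding protein gene, held 0, 2 and 1. PAX2, a kidney developmental factor gene, held 13, 4 and 4, and NEUROG2, a neurogenic factor gene, 1, 4 and 0. In the other direction, the muscle gene MYL3 held 3, 6 and 1 regions and the neuronal gene VAMP2 3, 5 and 2. MPO held 0, 2 and 1 among blood genes, KRT10 1, 2 and 2 among epithelial and SOX18 4, 6 and 5 among endothelial genes. Over all rows, more regions were listed with hairpin 1 and with hairpin 2 at 21 and 6 muscle and 31 and 5 neuronal genes. It was 19 and 3 for blood, 19 and 3 for epithelial and 13 and 3 for endothelial genes. Over all genes the shares were 52.0% and 13.9%.

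Gene clusters were read with care, since neighbours share regions and near-identical copies share reads. Over all genes, 14.7% were at least 2-fold higher with hairpin 1 and 1.71% with hairpin 2. Of 392 olfactory receptor genes, 314 had no region in either list, and 33 were at least 2-fold higher with hairpin 1 and 3 with hairpin 2. Of 94 keratin-associated protein genes, 17 and 3 were, and KRTAP4-11 held 0 regions with hairpin 1 and 2 with hairpin 2. Of 39 HOX genes 5 and 0 were, and HOXA10 held 5, 1 and 4. Of 510 ZNF genes 65 and 9 were, and ZNF385B held 9 regions with hairpin 1, none with hairpin 2 and 6 with shScramble. Of 69 replication-dependent histone genes 9 and 5 were, and H1-5, a linker histone gene, held 2, 0 and 2. Of 53 clustered protocadherin genes, which encode adhesion proteins of neurons, 3 and 2 were. By any difference, 18 held more regions with hairpin 1 and 19 with hairpin 2 over all rows, beside 52.0% and 13.9% of all genes. In the first 20000 rows 1 and 0 did, beside 2897 and 4350 of all 19974 genes.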

How the data were processed

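ATAC-seq of 9 samples in 3 groups was represented by 3 deposited lists, 1 per group. The submitters' processing notes name deepTools 3.2.1, SAMtools 1.9, BWA, FastQC 0.11.7 and Trimmomatic 0.36 as tools of the authors, and GRCh38 and dm6 as builds. Not given in the sources used here are the peak caller, any transposase shift and the use made of the spike-in. Each deposited region has a score, a second value whose unit is unknown (handled as a score), and a deposited p-value and q-value, all from the authors. They were used only to order and filter regions within a list. The depth of the samples, and so their precision, is unknown.

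Rows dropped in the hairpin 1 and hairpin 2 lists were 5 and 5 on chromosome Y, 396 and 399 with a negative value and 17 and 18 wider than 20 kb. Overlap meant at least 1 bp. The RefSeq table (GRCh38.p14) gave 19974 protein-coding genes. The start came from the promoter table for 15812, and either end of the gene stood in for it for 4162, chromosome 8 included. A locus was the gene with 5 kb on both sides. Python 3.11.15, numpy 2.4.6, pandas 2.3.3, scipy 1.17.1 and matplotlib 3.10.9 were used. On simulated regions 16000 of 16000 overlaps and distances and 3000 of 3000 locus counts were recovered, and bedtools 2.31.1 gave the same shared numbers.

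No test was made. The members and gene lists were chosen with earlier results of these data known. Named were CHD4, NR0B1, NKX2-2 and CCND1, the 10 genes per direction with the largest difference in region number, the 8 per direction with the best-ranked start covered with 1 hairpin only, the 5 best-ranked specific and shared regions, and up to 2 genes per list and direction by log2 ratio. Not all of these are described, and 1 gene that the rule names is not reported here. The printed promoters are the best-ranked windows of their class and were chosen after their values were seen. Alternatives changed the overlap, the rows, the gene window, the flank and the number added.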

Additional observations from a re-analysis of the deposited data

How the results depend on the processing

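No replicate could be left out and no paired analysis was possible because each group had 1 list, so no result has a check against replicates. The cause of the changes below was not tested. Each pair or set of values is given in the order hairpin 1, hairpin 2, and for regions shared and specific with hairpin 1, then shared and specific with hairpin 2. At an authors' p of at most 0.05 the lists held 14673 and 10943 regions, of which 56.7% and 76.0% were shared, and at a q of at most 0.05 1803 and 1369, of which 55.4% and 72.9% were. The shared percentages were 48.0 and 74.1 with an overlap of 50% of the shorter region, 35.8 and 52.99 with 50% of both, 40.1 and 59.9 with 250 bp on both sides of the centre, 66.7 and 67.4 in the first 20000 rows, 93.0 and 93.3 for those rows against the whole other list, and 63.3 and 68.1 with the hairpin 1 list shortened. Without the tied regions, an alternative chosen after seeing the data, they were 50.7 and 77.6. Percentages at gene starts were 20.7, 4.65, 19.2 and 15.2 with a 500 bp window, 35.1, 16.4, 33.7 and 30.9 with 5 kb, 36.5, 14.1, 36.1 and 39.4 in the first 20000 rows, 23.6, 7.12, 22.2 and 22.4 with the shortened list, 25.1, 8.02, 23.6 and 18.5 with an overlap of 50% of the shorter region, and 17.0, 3.78, 17.6 and 15.0 by centre. Without the tied regions they were 22.2, 8.08 and 21.0 for the first 3 classes, and with both ends of every gene, also chosen after seeing the data, 8.28 for regions specific to hairpin 1. Under each of these settings the hairpin 1 specific regions were the lowest of the 4 classes. Median widths were 1750, 1480, 1370 and 1090 bp in the first 20000 rows, 1370, 1190, 1060 and 990 bp with the shortened list, and 930 bp for regions specific to hairpin 2 with 50% of the shorter region. Genes at least 2-fold higher numbered 1437 and 2537 in the first 20000 rows and 1135 and 1584 with the shortened list. With hairpin 2 they numbered 575 without flank and 89 with 50 kb. Genes with a start covered with 1 hairpin only numbered 690 and 1757 with the shortened list. With hairpin 2 only they numbered 2432 in the first 20000 rows and 901 with a 500 bp window. Of all alternatives run, 21 values stayed within their limits and 69 moved.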
